A study of Mus musculus with 10 samples.

Results

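Prohormone convertases and granins are the enzymes, helpers and matrix proteins that turn hormone precursors into stored peptides, and 10 of their genes were followed here in sorted cells of the mouse islet. The genes were taken by symbol from the deposited table and are Pcsk1, Pcsk2, Cpe, Pam, Scg5, Pcsk1n, Chga, Chgb, Scg2 and Scg3. All 10 were among its 19213 gene entries and among the 12700 that passed the filter on low values, which asked for 1 RPKM or more in 2 or more libraries. RPKM are reads scaled to the length of the gene and to the total reads of the library.

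Islet hormones are made as longer precursors that are cut at pairs of basic residues inside maturing secretory granules. The convertases PC1/3 (Pcsk1) and PC2 (Pcsk2) make the cuts, carboxypeptidase E (Cpe) trims the exposed basic residues, and the amidating enzyme PAM (Pam) finishes those peptides that carry an amide. The chaperone 7B2 (Scg5) is needed for PC2 activity and proSAAS (Pcsk1n) inhibits PC1/3, while the granins (Chga, Chgb, Scg2, Scg3) are acidic proteins that pack the granule and are themselves cut into peptides. Proinsulin is processed by both convertases, and PC2 is the enzyme that releases glucagon from proglucagon, whereas PC1/3 releases GLP-1 from the same precursor in the gut.

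Delta cells gave 2 libraries (1 female, 1 male), alpha cells 3 (1 female, 2 male) and beta cells 5 (3 female, 2 male), each from islets of 10 to 12 adult mice pooled by sex. Every animal was triple transgenic. It carried mIns1-H2b-mCherry, a nuclear red reporter driven by the mouse Ins1 promoter that marks beta cells, a floxed YFP allele, and Sst-Cre in the mice used for delta cells or Gcg-cre in those used for alpha cells. Beta cells were sorted from the same islets as the YFP cells. Which beta library came from which Cre line is not stated, and a Cre reporter also marks cells that used the promoter only in the past. All islets were kept overnight in 5.5 mM glucose before sorting. Alpha replicates 1 and 2, and beta replicates 4 and 5, carry the same title number apart from a letter b, and whether they are separate pools is not stated. The p-values below therefore describe the spread among these libraries, part of which may be technical. Titles without b are those of 2 delta, 1 alpha and 3 beta libraries, so fits with only these hold 1 alpha library.

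Library totals recovered from the steps of the low RPKM values were 16688097 to 26684086 reads, and reads of the 10 genes made up at most 3.31% of a delta, 2.65% of an alpha and 3.51% of a beta library. The defining hormones followed the labels. Sst averaged 56579 RPKM in delta, 1829 in alpha and 422 in beta libraries, Gcg 22243, 255163 and 1474, and Ins2 2561, 1878 and 249624. In the delta libraries Gcg therefore stood at 8.72% of its alpha mean and Ins2 at 1.03% of its beta mean. In bulk libraries like these, fewer cells of a type and less RNA per cell cannot be told apart. The pancreatic polypeptide and epsilon markers Ppy, Pyy, Ghrl and Sertm1 summed to 44167 and 44801 RPKM in delta, 9607 to 15258 in alpha and 809 to 1560.4 in beta libraries, and the 4 ductal markers to 139 and 202, 691 to 1803 and 154 to 337 RPKM. The 4 Schwann markers summed to 9.92 and 10.2 RPKM in delta, 4.80 to 5.33 in alpha and 2.21 to 2.89 in beta libraries. The 5 immune markers summed to 61.1 and 77.5, 14.6 to 20.4 and 75.1 to 153 RPKM, with Lyz2 at 0 in both delta libraries. The 6 acinar markers in the table varied within cell types, at 369.9 and 575, 65.4 to 2532 and 158 to 7909 RPKM. Endothelial and mesenchymal markers summed to at most 4.77 and 2.81 RPKM in any library. The part of these other cells in the levels below was not tested.

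Pcsk1, which encodes PC1/3 (chromosome 13, 75089826 to 75134861, plus strand, GRCm38), differed most of the 10 genes. It stood at 30.1 and 27.4 RPKM in delta libraries, at 2.93, 3.23 and 3.33 RPKM in alpha libraries, and at 177, 304, 216, 269 and 284 RPKM in beta libraries. The cell types did not overlap, with beta above delta and delta above alpha. The log2 fold change of RPKM + 1 was -3.02 for delta over beta (SE 0.16, adjusted p = 6.26e-07), -5.82 for alpha over beta (SE 0.14, adjusted p = 1.49e-08) and 2.79 for delta over alpha (SE 0.17, adjusted p = 2.99e-06), by limma with Benjamini-Hochberg adjustment over all genes tested, the method behind every adjusted p of a gene below. These 3 calls kept their direction and passed in every alternative fitted.

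Mean Pcsk1 was 11.5% of its beta level in delta libraries and 1.26% in alpha libraries. Beside this stand genes known from beta cells. Relative to their beta means, Ins1, Ins2, Mafa, Ucn3, Slc2a2 and G6pc2 stood at 1.02% to 2.49% in delta libraries and at 0.692% to 2.56% in alpha libraries. Iapp, the amylin gene, which is not among these 6 markers, stood at 52.2% of its beta mean in delta libraries and at 4.17% in alpha libraries. The alpha level of Pcsk1 thus lay within the range of the 6 markers, while its delta level lay above them and below that of Iapp. The alpha values rest on 123 to 146 reads per library, against 1280 and 1533 reads in delta libraries, and all other values of the 10 genes rest on at least 9645 reads. By rank of RPKM among all genes of its library, Pcsk1 was at places 2450 and 2677 in delta, 9581 to 9677 in alpha and 78 to 211 in beta libraries.

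Pcsk2, which encodes PC2 (chromosome 2, 143546156 to 143816285, plus strand), was abundant in all 3 cell types. Its levels were 974 and 1083 RPKM in delta libraries, 1267, 1135 and 1088 in alpha libraries, and 729.8, 949.9, 624, 792 and 666 in beta libraries. Alpha and delta libraries lay above all beta libraries, and the alpha libraries lay just above the delta libraries. Pcsk2 was higher in alpha than in beta cells (log2 fold change 0.67, SE 0.14, adjusted p = 0.00338), a call lost with only the libraries without b in the title (0.0833). In delta over beta it was 0.475 (SE 0.16, adjusted p = 0.0318), and this call did not pass under any of 3 other scalings of the libraries (adjusted p = 0.0762 to 0.537), nor without the filter on low values (0.0803), delta replicate 1 (0.144), delta replicate 2 (0.167) or beta replicate 3 (0.0657), nor with only the libraries without b (0.128). Delta over alpha was -0.20 (SE 0.17, adjusted p = 0.410). Pcsk2 shares 260 and 99 exon bases with the antisense genes Pcsk2os1 and Pcsk2os2, which the unstranded libraries cannot separate, but these were listed at no more than 4.63 RPKM in any library.

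**Figure D1:**
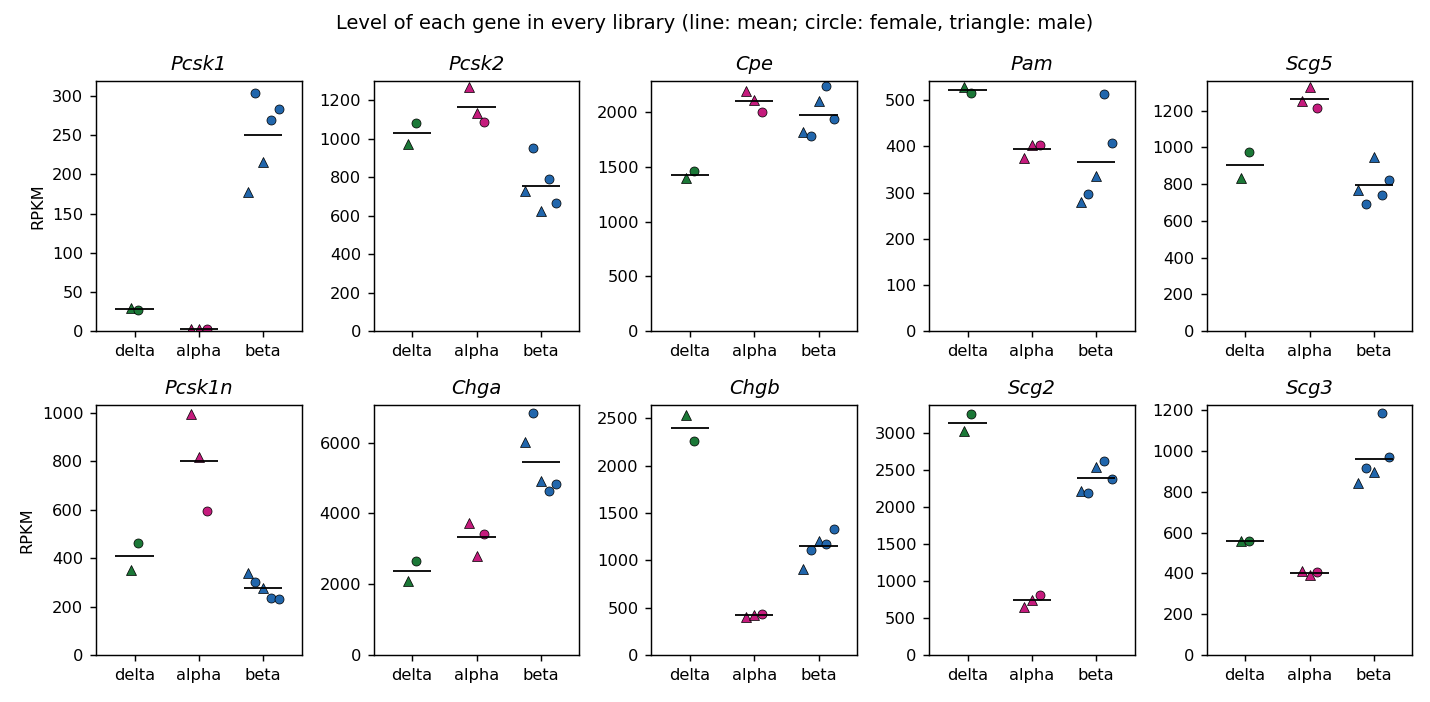
RPKM (vertical axes, each from 0) of the 10 genes in the 2 delta, 3 alpha and 5 beta libraries, with 1 point per library (circles female, triangles male) and a line at the mean of the cell type. Pcsk1 stood at 27.4 and 30.1 RPKM in delta and at 2.93 to 3.33 in alpha libraries, against 177 to 304 in beta libraries, while Chgb and Scg2 were highest in delta and lowest in alpha libraries.

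The balance of the convertases within a library does not change when all its values are scaled by a common factor. Quantile normalization is not such a scaling, and the ratios were not computed under it. RPKM are per length, so levels of different genes can be set side by side, given the gene lengths used. Lengths recovered from the values were 2516 bases for Pcsk1, 4743 for Pcsk2, 2193 for Pcsk1n and 1227 for Scg5. GENCODE M21 lists 5604, 7910, 2193 and 1569 exon bases for them. With other lengths, a ratio between genes would shift by the same factor in every library. There were 0.0310 and 0.0253 Pcsk1 RPKM per Pcsk2 RPKM in delta libraries, 0.00231, 0.00284 and 0.00306 in alpha libraries, and 0.242, 0.320, 0.346, 0.340 and 0.426 in beta libraries. The log2 ratio averaged -5.16 ± 0.21 in delta (SD, n = 2), -8.52 ± 0.21 in alpha (n = 3) and -1.60 ± 0.29 in beta libraries (n = 5), without overlap. The differences in mean log2 ratio were -3.56 for delta over beta (two-sided exact permutation p = 0.0952), -6.92 for alpha over beta (exact permutation p = 0.0357) and 3.36 for delta over alpha (exact permutation p = 0.200). These are the smallest p-values that 2 against 5, 3 against 5 and 2 against 3 libraries allow, and none of the 9 ratio tests passed after adjustment over the 9 (exact permutation tests, lowest adjusted p = 0.161). Pcsk2 exceeded Pcsk1 in all 10 libraries.

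Pcsk1n, the gene of the PC1/3 inhibitor proSAAS (chromosome X, 7919822 to 7924410, plus strand), was highest in the cells with least Pcsk1. It stood at 352 and 464 RPKM in delta libraries, at 996, 817 and 595 in alpha libraries, and at 338, 300.2, 276, 237 and 233 in beta libraries. The cell types did not overlap, although delta replicate 1 was close to beta replicate 1. Alpha cells were higher than beta cells (log2 fold change 1.46, SE 0.18, adjusted p = 0.000148), in every alternative fitted. Delta over alpha was -0.92 (SE 0.22, adjusted p = 0.00982), which did not pass without delta replicate 1 (adjusted p = 0.175) or with only the libraries without b (0.0510). Delta over beta was 0.53 (SE 0.20, adjusted p = 0.0509) and was not called. It passed without delta replicate 1 (0.0167), alpha replicate 1 (0.0425), alpha replicate 3 (0.0406), beta replicate 1 (0.0498) or beta replicate 2 (0.0438), with quantile normalization (0.0202), and without the sex term (0.0486).

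Set against the enzyme it inhibits, Pcsk1n had 11.7 and 16.9 RPKM per Pcsk1 RPKM in delta libraries, 339.8, 253 and 179 in alpha libraries, and 1.91, 0.987, 1.28, 0.882 and 0.821 in beta libraries. Inhibitor and enzyme transcripts were thus at similar RPKM in beta libraries alone, and the log2 ratio averaged 3.81 ± 0.38 in delta (SD, n = 2), 7.96 ± 0.46 in alpha (n = 3) and 0.16 ± 0.50 in beta libraries (n = 5). The difference was 3.65 for delta over beta, 7.80 for alpha over beta and -4.15 for delta over alpha, each at the smallest exact permutation p its design allows. An exon overlap of 135 bases with Eras on the opposite strand cannot be resolved in unstranded libraries, but Eras was listed at no more than 0.055 RPKM.

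Scg5, the gene of the PC2 chaperone 7B2 (chromosome 2, 113776362 to 113829121, minus strand), stood at 832 and 973 RPKM in delta libraries, at 1253, 1329 and 1215 in alpha libraries, and at 769, 693, 948, 741 and 822 in beta libraries. All alpha libraries lay above all others, and delta and beta libraries overlapped. Alpha over beta was 0.66 (log2, SE 0.12, adjusted p = 0.00153), a call lost under quantile normalization (adjusted p = 0.0995) or with only the libraries without b (0.0732). Delta over alpha was -0.48 (SE 0.15, adjusted p = 0.0297) and did not pass under quantile normalization (0.102) or without delta replicate 1 (0.353), alpha replicate 1 (0.0544), alpha replicate 2 (0.0733), alpha replicate 3 (0.0886) or the filter on low values (0.0904), nor with only the libraries without b (0.229). Delta over beta was 0.18 (SE 0.13, adjusted p = 0.281).

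Unlike the ratios that involve Pcsk1, the ratio of chaperone to enzyme stayed near 1 in all cell types. Scg5 had 0.855 and 0.899 RPKM per Pcsk2 RPKM in delta libraries, 0.989, 1.17 and 1.12 in alpha libraries, and 1.05, 0.729, 1.52, 0.936 and 1.23 in beta libraries, where the spread was widest. The mean log2 ratio differed by -0.28 for delta over beta (exact permutation p = 0.381), by 0.04 for alpha over beta (exact permutation p = 0.893) and by -0.31 for delta over alpha (exact permutation p = 0.200, the smallest its design allows).

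**Figure D2:**
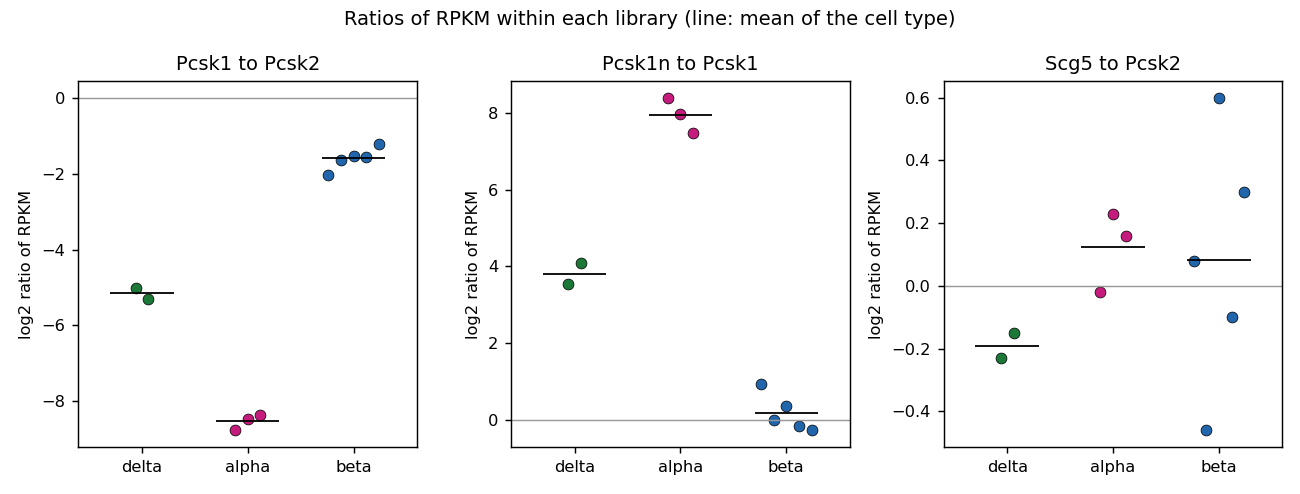
Log2 ratio of RPKM (vertical axes) of Pcsk1 to Pcsk2, Pcsk1n to Pcsk1 and Scg5 to Pcsk2 in each delta, alpha and beta library, with a line at the mean of the cell type. The ratio of Pcsk1 to Pcsk2 averaged -5.16 in delta, -8.52 in alpha and -1.60 in beta libraries, while that of Scg5 to Pcsk2 lay between -0.46 and 0.60 in all libraries.

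The enzymes that act after the convertases varied less than Pcsk1, and about as much as Pcsk2. The highest mean of a cell type was 1.47 times the lowest for Cpe and 1.42 times for Pam. For Pcsk1 and Pcsk2 it was 79.1 and 1.55 times. Cpe (chromosome 8, 64592542 to 64693054, minus strand) stood at 1398 and 1463 RPKM in delta libraries, at 2193, 2111 and 2003 in alpha libraries, and at 1819, 1782, 2099, 2243 and 1942 in beta libraries. It ranked between places 8 and 13 among all genes in each library. The delta libraries were below all others, and alpha and beta libraries overlapped. Cpe was lower in delta than in beta cells (log2 fold change -0.46, SE 0.13, adjusted p = 0.0154) and than in alpha cells (-0.55, SE 0.14, adjusted p = 0.0130). Both calls passed under all 3 other scalings, but not without delta replicate 1 (adjusted p = 0.136 against beta and 0.123 against alpha) or delta replicate 2 (0.0741 and 0.0605), without the filter on low values (0.127 and 0.122) or with only the libraries without b in the title (0.121 and 0.173). Alpha over beta was 0.09 (SE 0.12, adjusted p = 0.520).

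Pam (chromosome 1, 97795114 to 98095646, minus strand) stood at 529 and 515 RPKM in delta libraries, at 375, 404 and 402 in alpha libraries, and at 279.9, 296, 336, 514 and 407 in beta libraries. Beta replicate 4 came close to the lower delta library without reaching it, and the beta libraries spanned the alpha values. Delta over beta was 0.565 (log2, SE 0.20, adjusted p = 0.0385). It was not called under any of the 3 other scalings (0.0561 to 0.229), without the filter on low values (0.0664), in the fit of delta and beta libraries alone (0.0728), with only the libraries without b (0.116), nor in 8 of the 10 fits with 1 library left out, the exceptions being those without beta replicate 4 or 5. Those 8 fits gave an adjusted p of 0.287 without delta replicate 1, 0.0833 without delta replicate 2, 0.0528, 0.0516 and 0.0515 without alpha replicate 1, 2 or 3, and 0.0781, 0.0519 and 0.0592 without beta replicate 1, 2 or 3. Alpha over beta (0.19, SE 0.18, adjusted p = 0.383) was not called. Delta over alpha (0.38, SE 0.22, adjusted p = 0.203) was called in the fit of delta and alpha libraries alone (0.0297). Pam shares 188 exon bases with B230216N24Rik on the same strand, a gene listed at no more than 3.82 RPKM.

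The granins made up different mixtures in delta cells and in the other cell types. Chga, which encodes chromogranin A (chromosome 12, 102554969 to 102565028, plus strand), was the most abundant of the 10 genes in alpha and beta libraries, and Scg2 in delta libraries. Its levels were 2094 and 2664 RPKM in delta libraries, 3734, 2803 and 3416 in alpha libraries, and 6013, 6832, 4909.5, 4624 and 4834 in beta libraries. The groups did not overlap, with beta highest and delta lowest. Chga was lower in delta than in beta cells (log2 fold change -1.18, SE 0.20, adjusted p = 0.00145), in every alternative fitted. Alpha over beta was -0.69 (SE 0.18, adjusted p = 0.0114), which did not pass under median-ratio scaling (0.0520), without the filter on low values (0.142), without alpha replicate 3 (0.0650) or with only the libraries without b in the title (0.345). Delta over alpha was -0.49 (SE 0.22, adjusted p = 0.113), and it passed with quantile normalization (0.0138) or with libraries scaled without the hormone genes (0.0445).

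Chgb and Scg2, the genes of chromogranin B (chromosome 2, 132781278 to 132795079, plus strand) and secretogranin II (chromosome 1, 79434669 to 79440120, minus strand), shared an order that differed from that of Chga. Chgb stood at 2538 and 2257 RPKM in delta libraries, at 405, 418 and 429 in alpha libraries, and at 912, 1111, 1203, 1175 and 1334 in beta libraries. Scg2 stood at 3021 and 3252 RPKM in delta libraries, at 649.6, 745 and 816 in alpha libraries, and at 2214, 2187, 2537, 2621 and 2374 in beta libraries. For both genes all delta libraries were above all beta libraries, and all beta libraries above all alpha libraries.

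Delta cells exceeded alpha cells by 2.50 for Chgb (log2 fold change, SE 0.16, adjusted p = 3.20e-06) and by 2.08 for Scg2 (SE 0.14, adjusted p = 5.48e-06), and alpha over beta was -1.42 (SE 0.13, adjusted p = 1.83e-05) and -1.67 (SE 0.12, adjusted p = 3.73e-06). These 4 calls passed in every alternative fitted. The Chgb difference between delta and beta cells was 1.08 (SE 0.14, adjusted p = 0.000269), and it did not pass under quantile normalization (0.51, adjusted p = 0.0874). For Scg2 that difference was 0.41 (SE 0.13, adjusted p = 0.0266). It was not called under the 3 other scalings (0.0628 to 0.677), without delta replicate 1 or delta replicate 2 (each 0.139), without the filter on low values (0.162), in the fit of delta and beta libraries alone (0.0634) or with only the libraries without b (0.0986).

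Scg3, which encodes secretogranin III, a binder of chromogranin A at the granule membrane (chromosome 9, 75643189 to 75684056, minus strand), stood at 560.0 and 559.9 RPKM in delta libraries, at 414, 390.0 and 405 in alpha libraries, and at 846, 919.5, 896, 1188 and 969.7 in beta libraries. The groups did not overlap, and their order was that of Pcsk1, with beta highest and alpha lowest. Scg3 was lower than in beta cells both in delta (log2 fold change -0.76, SE 0.12, adjusted p = 0.000953) and in alpha cells (-1.22, SE 0.11, adjusted p = 1.98e-05), in every alternative fitted. Delta over alpha was 0.455 (SE 0.13, adjusted p = 0.0252). That call was lost under the 3 other scalings (0.322 to 0.692) and without delta replicate 1 (0.212), delta replicate 2 (0.0699), alpha replicate 2 (0.0593), alpha replicate 3 (0.115) or the filter on low values (0.0638), and with only the libraries without b (0.434).

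**Figure D3:**
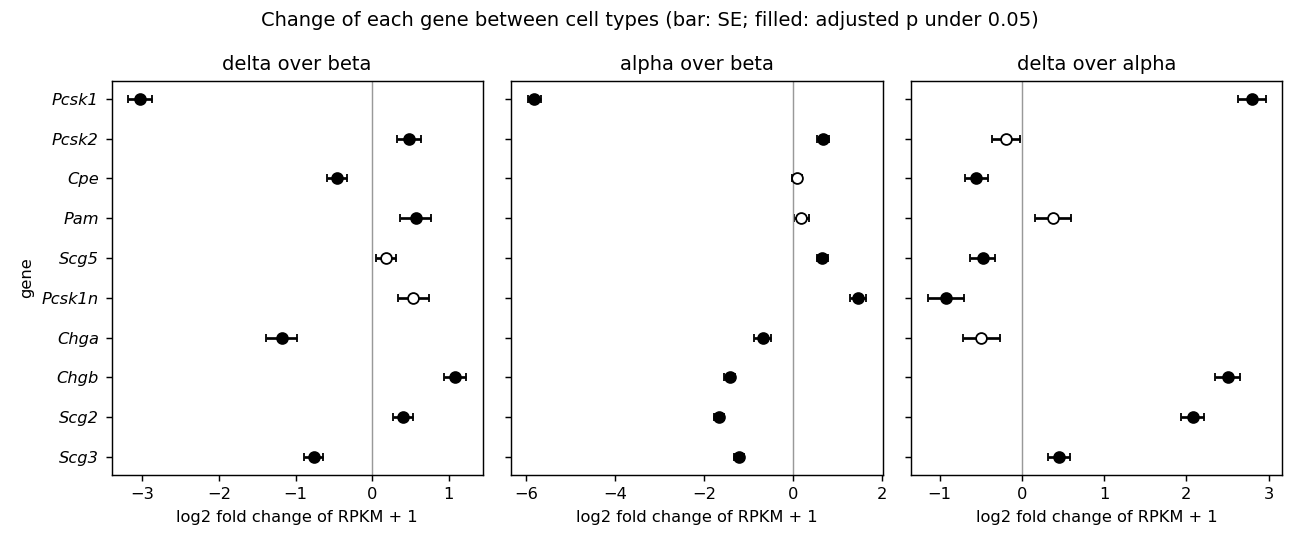
Log2 fold change of RPKM + 1 (horizontal axes) of each gene in delta over beta, alpha over beta and delta over alpha, with bars for the SE and filled points for an adjusted p under 0.05. Pcsk1 had the largest change in each comparison (-3.02, -5.82 and 2.79), and Chgb and Scg2 were next in delta over alpha (2.50 and 2.08).

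The make-up of the granin pool differed between cell types. Shares within a library do not change when all its values are scaled by a common factor. The RPKM of Chga, Chgb, Scg2 and Scg3 added up to 8213 and 8733 in delta libraries, 4356 to 5202 in alpha libraries and 9512 to 11050 in beta libraries. Of this sum Chga made up 25.5% and 30.5% in delta libraries, 64.4% to 71.8% in alpha libraries and 48.1% to 61.8% in beta libraries. Of the summed RPKM of all 10 genes, Scg2 took 24.5% in both delta libraries, 5.75% to 7.87% in alpha and 14.2% to 18.2% in beta libraries. Cpe took 11% and 11.3%, 19.3% to 20.8% and 11.6% to 15.6%, and Pcsk2 7.90% and 8.17%, 10.5% to 11.2% and 4.44% to 6.18%. Pcsk1 never exceeded 2.05%, its highest share in a beta library.

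**Figure D4:**
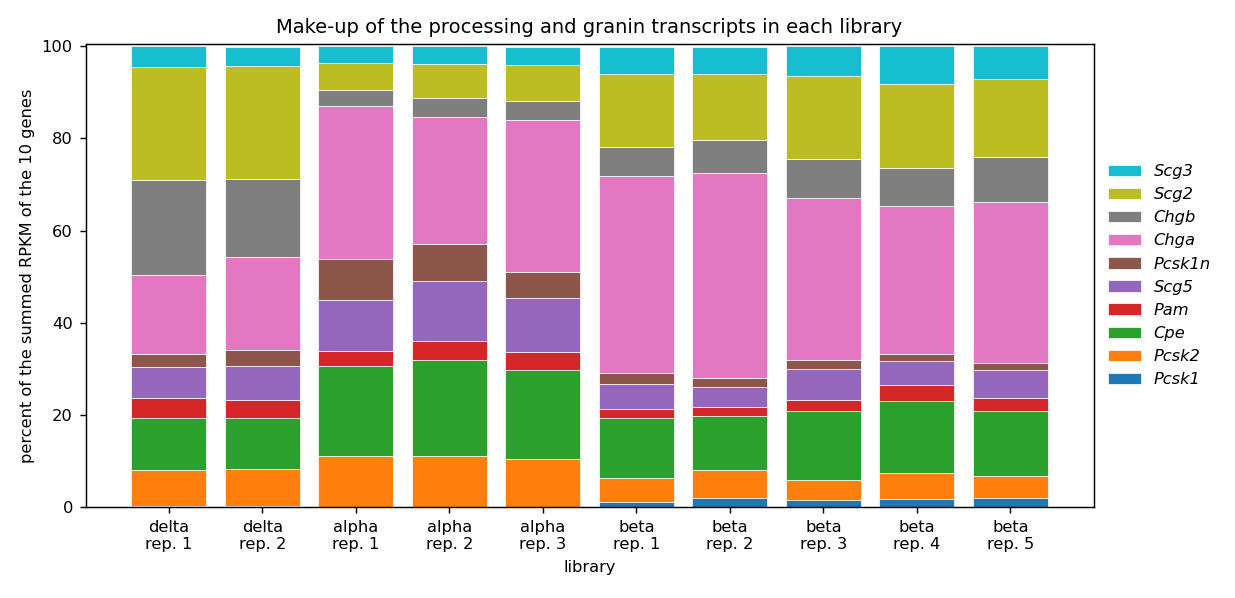
Share of each gene in the summed RPKM of the 10 genes (vertical axis, percent) for each delta, alpha and beta library. Chgb took 17.0% and 20.6% in delta libraries, 3.59% to 4.14% in alpha and 6.47% to 9.62% in beta libraries, while Pcsk1n took 2.85% and 3.50%, 5.73% to 8.82% and 1.65% to 2.4%.

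Promoters are shown for Pcsk1, the gene that differed most, and for the granins Chgb and Scg2, which shared an order of levels, and Chga, which did not. Each runs from 250 bases before to 50 bases after the RefSeq start on GRCm38.p6, is written 5′ to 3′ on the strand of the gene, and has the cAMP response element TGACGTCA and its core TGACG (or CGTCA on the other strand) in capitals. Pcsk1 is at chr13:75089607-75089906 on the plus strand, Chgb at chr2:132781392-132781691 on the plus strand, Scg2 at chr1:79439977-79440276 on the minus strand and Chga at chr12:102554691-102554990 on the plus strand.
Pcsk1: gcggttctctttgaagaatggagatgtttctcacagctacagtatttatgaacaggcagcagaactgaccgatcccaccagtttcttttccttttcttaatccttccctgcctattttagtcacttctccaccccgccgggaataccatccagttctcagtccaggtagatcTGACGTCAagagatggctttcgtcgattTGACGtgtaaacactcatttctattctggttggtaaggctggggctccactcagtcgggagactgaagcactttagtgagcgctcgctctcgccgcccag
Chgb: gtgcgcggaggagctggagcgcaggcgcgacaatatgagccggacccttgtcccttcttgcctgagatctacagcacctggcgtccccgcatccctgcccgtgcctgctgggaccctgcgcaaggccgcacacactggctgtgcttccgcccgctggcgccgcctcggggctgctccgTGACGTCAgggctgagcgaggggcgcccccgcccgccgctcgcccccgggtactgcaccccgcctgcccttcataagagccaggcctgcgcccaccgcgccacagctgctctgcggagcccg
Scg2: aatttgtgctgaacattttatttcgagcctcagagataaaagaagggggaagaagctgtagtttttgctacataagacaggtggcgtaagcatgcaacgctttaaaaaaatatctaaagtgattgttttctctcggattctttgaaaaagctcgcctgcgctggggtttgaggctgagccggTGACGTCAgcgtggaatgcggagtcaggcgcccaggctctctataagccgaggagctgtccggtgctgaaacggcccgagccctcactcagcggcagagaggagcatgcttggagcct
Chga: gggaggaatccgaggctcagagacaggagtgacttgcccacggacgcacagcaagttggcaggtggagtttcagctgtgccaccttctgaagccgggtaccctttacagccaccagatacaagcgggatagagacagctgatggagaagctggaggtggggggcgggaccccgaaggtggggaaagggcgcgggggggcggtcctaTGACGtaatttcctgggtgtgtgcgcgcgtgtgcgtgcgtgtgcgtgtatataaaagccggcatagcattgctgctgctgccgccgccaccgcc

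RefSeq promoters were matched for 9 of the 10 genes, all but Cpe. The palindrome TGACGTCA, which reads the same on both strands, was present in those of Pcsk1, Chgb and Scg2, with its first base at -78, -72 and -68 from the start. Of all 32851 promoters in the table, 1.79% hold it. The core TGACG was present on either strand, outside the palindrome, in Pcsk1 (at -50), Pcsk2 (-34), Scg5 (-175, 20 and 41), Chga (-44) and Scg3 (-30), and 20.8% of all promoters hold the core, the palindrome included. Neither was in the windows of Pam or Pcsk1n. Chga was the only one of the 9 with TATAAA, which 13.6% of all promoters hold. Of the genes with the palindrome, Pcsk1 was highest in beta cells and Chgb and Scg2 in delta cells. All of them were lowest in alpha cells, as was Scg3, which lacks it. A link between the motif and the levels was not tested.

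Counted over the 10 genes, 8 differed between delta and beta cells, 4 higher (Pcsk2, Pam, Chgb and Scg2) and 4 lower (Pcsk1, Cpe, Chga and Scg3). Of all genes tested 50.7% were called in this comparison, 37.4% higher and 13.3% lower, or 24.6% and 24.4% under median-ratio scaling. Alpha and beta cells differed in 8 of the 10, 3 higher (Pcsk2, Scg5 and Pcsk1n) and 5 lower (Pcsk1 and the 4 granins), where 54.0% of all genes were called, 23.7% higher and 30.3% lower, or 33.6% and 22.2% with libraries scaled without the hormone genes. Delta and alpha cells differed in 7, 4 higher (Pcsk1, Chgb, Scg2 and Scg3) and 3 lower (Cpe, Scg5 and Pcsk1n), where 38.0% of all genes were called, 32.1% higher and 5.89% lower, or 14.5% and 10.4% under median-ratio scaling. The levels did not overlap between groups for 9 of the 10 genes in delta against beta libraries (62.8% of all genes), for 8 in alpha against beta (50.0%) and for 10 in delta against alpha (71.0%). The comparisons share libraries and are not independent. The median size of the log2 fold change over the 10 genes was 0.55, 0.95 and 0.52 in these comparisons.

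RPKM are shares of a library, and the 7 genes of the islet hormones (Sst, Gcg, Ins1, Ins2, Iapp, Ppy, Pyy) held 32.2% and 33.9% of summed RPKM in delta libraries, 49.2% to 52.6% in alpha libraries and 47.0% to 62.7% in beta libraries. Over all genes tested, the log2 fold change had a median of 0.25 for delta over beta, -0.02 for alpha over beta and 0.26 for delta over alpha, and was -0.001 (delta over beta) and -0.011 (delta over alpha) under median-ratio scaling. Relative to those medians the delta over beta change was -3.28 for Pcsk1, -1.43 for Chga, -1.01 for Scg3, -0.72 for Cpe and 0.83 for Chgb. It was 0.31 for Pam, 0.22 for Pcsk2, 0.15 for Scg2 and -0.07 for Scg5. Of the calls above, 4 of 8 for delta over beta (Pcsk1, Cpe, Chga and Scg3, each lower) passed in the same direction under all 3 other scalings, 6 of 8 for alpha over beta (Pcsk1, Chgb, Scg2 and Scg3 lower, Pcsk2 and Pcsk1n higher) and 5 of 7 for delta over alpha (Pcsk1, Chgb and Scg2 higher, Cpe and Pcsk1n lower).

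**Figure D5:**
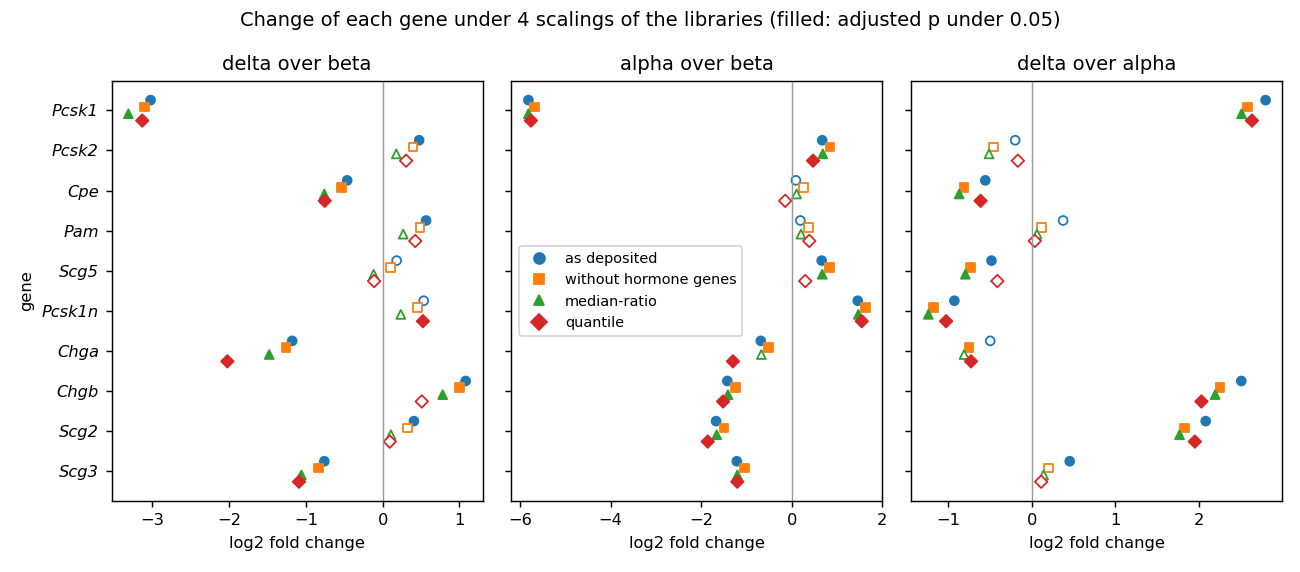
Log2 fold change (horizontal axes) of each gene in delta over beta, alpha over beta and delta over alpha under 4 scalings of the libraries, with filled symbols for an adjusted p under 0.05. The alpha over beta change of Pcsk1 is near -5.8 in all 4, while the delta over beta changes of Pcsk2, Pam and Scg2 are filled only for the values as deposited.

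Other genes of precursor processing and of the granule were read from a list of 22, of which Pcsk5 and Cpz, each below 1 RPKM, did not pass the filter. Of the 20 tested, delta over beta had 7 called higher and 4 lower, alpha over beta 3 higher and 6 lower, and delta over alpha 9 higher and 3 lower, 11, 9 and 12 genes in all, where 50.7%, 54.0% and 38.0% of all genes tested were called. The list's median log2 fold change was 0.19, -0.09 and 0.34, beside 0.25, -0.02 and 0.26 over all genes. Under median-ratio scaling the counts were 3 and 5, 3 and 7, and 4 and 4. Of all 12700 genes tested, 3120 and 3096, 3533 and 3680, and 1846 and 1324 were then called higher and lower.

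Within the convertase family, Furin, a convertase of the trans-Golgi network, was present at 23.9 ± 0.765 RPKM in delta (SD, n = 2), 20.5 ± 0.153 in alpha (n = 3) and 19.4 ± 1.68 in beta libraries (n = 5). Furin was higher in delta than in beta cells (log2 fold change 0.301, SE 0.09, adjusted p = 0.0207), but not under the 3 other scalings (adjusted p = 0.0767 to 0.927). Pcsk6, the convertase PACE4, was at 17.0 ± 1.12, 4.98 ± 0.705 and 15.9 ± 1.46 RPKM and was lower in alpha than in beta cells (log2 fold change -1.45, SE 0.10, adjusted p = 2.87e-06). Mbtps1, the site-1 protease of membrane-bound transcription factors, was higher in delta cells than in beta (0.78, SE 0.09, adjusted p = 9.74e-05) and in alpha cells (0.70, SE 0.10, adjusted p = 0.000466), the second of which was not called under median-ratio scaling (0.39, adjusted p = 0.0535). None of these 3 genes averaged above 61.7 RPKM in any cell type, against at least 752 RPKM for Pcsk2.

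Several granule genes outside the 10, though not all of those on the list, differed between cell types. Resp18, an endocrine protein of the secretory pathway, averaged 2941 ± 484 RPKM in delta, 3578 ± 337 in alpha and 1034 ± 45.4 in beta libraries, and was higher than in beta cells in both delta (log2 fold change 1.501, SE 0.13, adjusted p = 2.14e-05) and alpha cells (1.79, SE 0.12, adjusted p = 3.04e-06). Gnas, whose locus encodes a G protein subunit and the granin-like NESP55 from overlapping transcripts that gene-level values do not separate, was higher by 2.05 in delta (adjusted p = 2.26e-07) and by 2.23 in alpha cells (adjusted p = 6.10e-08) than in beta cells. Vgf, a granin-like precursor, averaged 49.7 ± 4.37 RPKM in delta, 190.2 ± 37.1 in alpha and 161 ± 38.8 in beta libraries and was lower in delta than in beta cells (-1.63, adjusted p = 0.000346) and in alpha cells (-1.93, adjusted p = 0.000277). Ptprn, the granule membrane protein IA-2, averaged 579 RPKM in delta, 267 in alpha and 473 in beta libraries, and was lower in alpha than in beta cells (-0.78, adjusted p = 0.000243). Nucb2, the precursor of nesfatin-1, averaged 103, 45.3 and 143 RPKM and was lower in delta (-0.46, adjusted p = 0.00364) and alpha (-1.61, adjusted p = 6.15e-07) than in beta cells. Ctsl, a lysosomal protease that can also cut prohormones, was higher in delta than in beta cells (0.68, SE 0.23, adjusted p = 0.0325), but not under median-ratio scaling (0.38, adjusted p = 0.118) or with all genes kept (adjusted p = 0.0563).

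Sex had no called effect on the 10 genes. By limma 0 of them passed for female over male, 0 had an unadjusted p under 0.05, the lowest adjusted p was 0.770, and 0.0472% of all genes tested were called. Changes ranged from -0.22 for Pcsk1n to 0.27 for Pcsk1 (log2). For Pcsk1 the unadjusted limma p was at the edge, 0.05 as deposited and 0.0472 with a pseudocount of 0.1. Its female beta libraries (304, 269 and 284 RPKM) all lay above the male ones (177 and 216). In delta libraries the female (27.4) lay below the male (30.1). The difference of the sex effect between alpha and beta cells was called for 0 of 12700 genes by limma (lowest unadjusted p among the 10 genes 0.0614, for Pcsk1), with 1 female alpha library. Within beta libraries the coefficient of variation was 8.03% for Scg2, 9.80% for Cpe, 20.9% for Pcsk1 and 26.1% for Pam.

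Among the other genes tested, those most like Pcsk1 over the 10 libraries were Degs1 (Pearson r of log2(RPKM + 1) = 0.9983), Gng12 (0.9979) and Nfix (0.9964). Degs1, a desaturase of sphingolipid synthesis, averaged 96.3 RPKM in delta, 42.9 in alpha and 219 in beta libraries. Closest to Pcsk2 were Arrdc2 (0.9707), Arhgap23 (0.9541) and Mb21d2 (0.9528), with means of 3.60 to 7.21 RPKM in any cell type. Closest to Pcsk1n were Sct, the secretin gene (0.9869, at 0.536, 1.51 and 0.0858 RPKM), Fam101a (0.9744) and 2900041M22Rik (0.9716). Closest to Chga were BC026585 (0.9791), Ky (0.9755) and Nme1 (0.9693, at 90.2, 107 and 140 RPKM). With libraries in 3 separate cell types, such values mostly describe the cell type means and share the scaling of each library.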

How the data were processed

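The authors deposited 1 table of RPKM values for the 10 libraries. The labels' protocols name Trizol extraction and the TruSeq RNA kit v2, a kit that keeps no strand information. The submitters' processing notes name STAR 2.4, featureCounts, edgeR 3.12.0 and GRCm38.p3. The annotation, the multi-mapping rule and the scaling factors are not stated there. Library totals were recovered from the steps of low values (within 0.142 of a whole number). The members and lists were chosen with earlier results of these data known.

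limma 3.58.1 (R 4.3.3) was fitted to log2(RPKM + 1) of all 10 libraries, with terms for cell type and sex, a mean-variance trend and 6 residual degrees of freedom. Benjamini-Hochberg adjustment ran over all 12700 genes tested, and an adjusted p under 0.05 is a call. Fold changes on this scale understate changes of low genes. Ratios were compared by two-sided exact permutation tests. The fit was tested on simulated data. Named genes are the 10 members, the hormone and marker genes, the list of 22, and for 4 members the 3 genes of highest correlation. Values of 1 gene of the list of 22 are not reported here. Gene coordinates are from GENCODE M21 (GRCm38), matched by symbol.

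Alternatives were a pseudocount of 0.1, no filter, 3 other scalings (median-ratio, quantile, and without 7 hormone genes), no sex term, no trend, only the cell types compared, each library left out, and only libraries with or without the letter b in the title, whose meaning the labels do not give. A fit with libraries paired by consecutive title numbers was added after the data were seen.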

Additional observations from a re-analysis of the deposited data

How the results depend on the processing

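Of the 10 genes, 8 were called between delta and beta cells, but 4 without the filter on low values, 5 under each of the 3 other scalings, 4 with only the libraries without b in the title, and 4 to 8 with 1 library left out (5 without delta replicate 1 and 4 without delta replicate 2). Between alpha and beta cells 8 were called, 5 with only the libraries without b and 7 to 8 with 1 left out. Between delta and alpha cells 7 were called, 4 without the filter, 3 with only the libraries without b, and 3 to 7 with 1 left out (3 without delta replicate 1). Leaving out a delta library leaves 1 delta library, and the libraries without b hold 1 alpha library. Each is assumed to vary like the others, so a call lost in these fits may reflect the fewer libraries. Over all genes, delta over beta calls numbered 6442 of 12700 as deposited and 7227 of 19213 without the filter. Under the other scalings they numbered 6052 to 6216 of 12700. Delta over alpha calls numbered 4824 of 12700 as deposited and 5399 of 19213 without the filter. With only the libraries without b, fewer of all genes were called in each comparison. The same held for the delta comparisons with a delta library left out.

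Only 1 alpha library has no b in its title, so ratio differences from it were not tested. With only the libraries without b, the delta over alpha difference was 3.60 for the log2 ratio of Pcsk1 to Pcsk2, -4.60 for Pcsk1n to Pcsk1 and -0.17 for Scg5 to Pcsk2. For Scg5 to Pcsk2 in alpha over beta it was -0.26 with only the libraries with b, and -0.10 to 0.17 with 1 library left out.

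Signs turned only for changes that were not called as deposited. Scg5 in delta over beta was -0.12 under median-ratio scaling, -0.11 under quantile normalization and -0.02 to 0.36 with 1 library left out. Cpe in alpha over beta was -0.15 under quantile normalization. For female over male, Cpe was 0.19 under quantile normalization and 0.01 when scaled without hormone genes, and with 1 library left out Cpe ran from -0.05 to 0.03, Scg5 from -0.15 to 0.01 and Chgb from -0.02 to 0.15. The cause of these shifts was not tested.

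Shared islets are not marked library by library in the labels. Titles of consecutive number, equal sex and equal suffix give 4 candidate pairs: delta replicate 1 with beta replicate 1, delta replicate 2 with beta replicate 2, alpha replicate 2 with beta replicate 3, and alpha replicate 3 with beta replicate 5. Over genes, deviations from the group means correlated by 0.00, 0.37, 0.27 and 0.46 within these pairs. Of the 4 delta or alpha libraries, 3 correlated best with their own beta partner. The deviations keep any effect of sex or suffix, in which the pairs match. Those of the only 2 delta libraries are mirror images by construction. The correlations therefore do not test whether islets were shared. With the pairs as a replicate block (8 libraries, 2 residual degrees of freedom, chosen after seeing the data) 6 genes were called for delta over beta (without Pcsk2, 0.093, and Cpe, 0.091), 8 for alpha over beta and 6 for delta over alpha (without Cpe, 0.208, and Scg5, 0.413, and with Pam, 0.0157). The block changed no other call of the 10 genes. Over all 12700 genes tested, the block fit called 7905 for delta over beta, 5738 for alpha over beta and 5343 for delta over alpha. As deposited these were 6442, 6864 and 4824.

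Depth limits Pcsk1 in alpha libraries most, at 123 to 146 reads.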
